A study of Mus musculus with 12 samples.

Results

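The 8 libraries described here were labelled as lumbar spinal cord of mice of a single genotype, and they carry library numbers in separate blocks. Of the 12 libraries in the series, 8 were labelled CMT2A/MitoCharc1. Among those 8, the 3 libraries numbered 41, 42 and 43 were set against the 5 numbered 72 to 76. All 8 animals were hemizygous for the MitoCharc1 transgene Tg(Eno2-MFN2*R94Q)L51Ugfm on a B6;D2 background, untreated and 30 days old, and are here called MFN2 mice. Their transgene is driven by a neuron-specific rat Eno2 promoter and encodes human MFN2 with the R94Q change, a substitution found in Charcot-Marie-Tooth disease type 2A, an inherited axonal neuropathy. Both mouse copies of Mfn2, a mitochondrial fusion protein, remain in these animals, and all came from 1 transgenic line. The other 4 libraries, numbered 44 to 47, came from untreated wild-type C57BL/6 (WT) mice of 30 days and serve only as a reference. The labels do not say what the break in the numbers stands for, so preparation day, sequencing run, litter and sample handling cannot be told apart in the comparison. The same holds for sex pattern, given below, and for the B6 and D2 alleles of each animal, which the labels do not give. The labels do not pair the samples with named animals, and p-values measure only the spread between these libraries.

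An RNA library holds several kinds of transcript. Most messenger RNAs end in a poly(A) tail, are spliced and are translated in the cytoplasm. Many other RNAs stay in the nucleus or are processed from longer precursors: long noncoding RNAs such as Malat1 of the nuclear speckles, small nucleolar RNAs (snoRNAs) that guide the modification of ribosomal RNA, the 7SK RNA that holds back the elongation factor P-TEFb, and microRNA hairpins cut out of primary transcripts. Processed pseudogenes are copies of messenger RNAs that were reverse transcribed into the genome, so that reads of a gene and of its copies can be hard to separate. The study describes its libraries in conflicting terms, so whether RNA with a poly(A) tail was selected is not settled here.

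Raw counts per gene summed to 26738930, 26080815 and 21803177 in libraries 41, 42 and 43. The totals were 22083683, 19359454, 24065764, 25296863 and 19664119 in libraries 72 to 76. Levels are given as CPM, counts scaled to library size with TMM factors, and differences are log2 fold changes from edgeR, libraries 72 to 76 minus libraries 41 to 43, with the standard error and the adjusted p of a quasi-likelihood test over all 15633 genes above 1 CPM in at least 3 of the 8 libraries. A gene was called at an adjusted p of at most 0.05.

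The libraries differed in sex and in tissue markers as well as in number. Xist, the X inactivation RNA of female cells, stood at 0.268 CPM in library 41, 306 in library 42 and 0.197 in library 43. It ranged from 294 to 404 CPM in libraries 72 to 76. Ddx3y, a Y-linked helicase, stood at 89.7 and 69.8 CPM in libraries 41 and 43 and at 0 in library 42 and in all of libraries 72 to 76. Library 42 was thus the single female-pattern library among 41 to 43, while all 5 of the others were female-pattern. Library 43 also stood apart in its tissue markers, which put its label as lumbar spinal cord in doubt. Its dissection and identity were not tested. Tbr1, a transcription factor of cortical neurons, reached 94.2 CPM there and at most 0.812 CPM in the other 11 libraries. The 16 tested members of a list of 25 forebrain genes, of which Camk2a was the most abundant, summed to 6354 CPM in library 43 and to between 650 and 710 CPM in the other 7 MFN2 libraries. Hoxb8, which marks the trunk level of the cord, stood at 20.3 CPM in library 43 against 149 and 128 CPM in libraries 41 and 42, and Chat, the acetylcholine-synthesising enzyme of motor neurons, stood at 5.47 CPM against 17.0 and 17.7. Counts are therefore given with and without library 43, and a gene given with a single log2 fold change was called, or not called, alike in both fits unless stated. In these bulk samples, fewer cells of a type and less RNA per cell cannot be told apart.

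Mouse Mfn2 itself differed little between the blocks. It stood at 212, 224 and 234 CPM in libraries 41 to 43 and at 216, 190, 205, 200 and 190 CPM in libraries 72 to 76, and the ranges overlapped (log2 fold change -0.16 ± 0.071, adjusted p = 0.215). The human transgene was not analysed here.

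With all 8 libraries, 342 of 15633 genes (2.19%) were called between the number blocks. Of these, 157 (1.00%) were higher and 185 (1.18%) were lower in libraries 72 to 76. Scaling by library size alone gave 386 calls split 281 higher to 105 lower, and upper-quartile scaling gave 372 split 259 to 113, so the balance of directions depended on the scaling. Without library 43, 2383 genes (15.2%) were called, 1135 higher (7.26%) and 1248 lower (7.98%). Library-size and upper-quartile scaling gave 2378 calls (1563 to 815) and 2428 calls (1499 to 929) there. The same 341 genes were called in both fits, all in the same direction, 156 higher and 185 lower. A single call was lost and 2042 were gained when library 43 was left out, and the common dispersion, the squared variation between libraries of a block, fell from 0.0468 to 0.0136. The median absolute log2 fold change of the called genes was 0.59 with library 43 and 0.43 without it.

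The 8-library count changed by over 1.5 times when any library but 42 was left out. It was 76 without library 41, 245 without 42, 64 without 72, 34 without 73, 31 without 74, 55 without 75 and 86 without 76. In the fit without library 43, the count was 688 with library 41 also left out, 1477 without 74 and 1436 without 75, and it was 1693, 2108, 1849 and 2616 without 42, 72, 73 and 76. The 688 calls compare the single female-pattern library 42 with 72 to 76, all of the same sex pattern, and assume that library 42 varies as the others do. With the Xist level as a covariate, 1 gene was called over the 8 libraries and 551 without library 43.

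For 2810 genes (18.0%) the ranges of the 3 and the 5 libraries were separate, and all 342 called genes were among them. Over all genes, the block of numbers took 31.9% of the variance in log2 CPM among the 8 libraries (pseudo-F 2.80). This was the largest pseudo-F of the 56 possible divisions into 3 and 5 (exact permutation test, p = 0.0179, the smallest it can give). Without library 43 the share was 44.7% (pseudo-F 4.05, exact permutation test over 21 divisions, p = 0.0476, the smallest it can give). The first principal component, with 46.4% of the variance, placed library 43 at -86.1 and the other 7 between 4.4 and 18.6. The second, with 25.3%, placed libraries 41 and 42 at -49.6 and -31 and library 43 at 8.19, within the range of 7.05 to 23.0 of libraries 72 to 76.

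The composition of the libraries differed by number as well. The 10 most abundant genes took 15.2% ± 0.671 of the counts in libraries 41 to 43 (SD, n = 3) and 13.8% ± 0.619 in 72 to 76 (SD, n = 5). The mean GC content of the counted genes, weighted by counts, was 51.6, 51.6 and 51.9% against 50.7, 50.6, 50.6, 50.7 and 50.6%, without overlap. The mean exonic length weighted the same way was 6717 ± 109 bases against 6979 ± 47.7 bases. Each of these 3 measures had p = 0.0357 in a two-sided exact permutation test, the smallest that 3 against 5 libraries allow, and an adjusted p of 0.0476 over the 4 measures compared. The 3 are not independent, since Gm23935, the most abundant tested gene, enters each with 57 bases and 73.7% GC. It stood at 87010, 76080 and 95900 CPM against 52910 to 57650 CPM. Over protein-coding genes alone the weighted GC content was 49.51, 49.56 and 49.60% against 49.32, 49.20, 49.19, 49.32 and 49.25%, which was not tested. The number of genes detected after thinning every library to 19359454 counts was 24950 ± 1220 against 27020 ± 1469 (exact permutation p = 0.143, adjusted p = 0.143). Without library 43 all 4 measures had p = 0.0952 in the exact permutation test, which is the smallest p that 2 against 5 libraries allow.

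**Figure D1:**
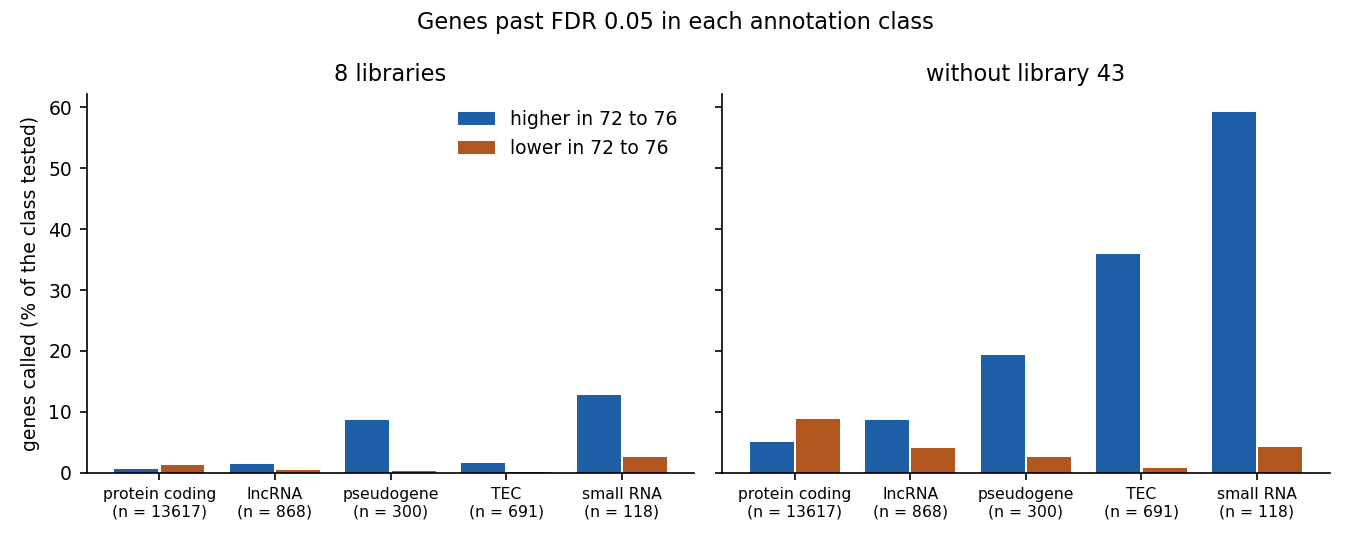
Percent of tested genes called higher or lower in libraries 72 to 76 than in libraries 41 to 43, by gene class, with all 8 libraries and without library 43. Small RNA, TEC and pseudogene loci were called mostly higher, with small RNA reaching 59.3% higher without library 43. Protein-coding genes reached 4.99% higher and 8.76% lower without library 43.

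By gene class, the counts of calls in each direction differed, in part through the filter on low counts. A gene needed 1 CPM in only 3 libraries, so it could pass through the larger block alone. This held for 258 of the 15633 genes, which were above 1 CPM in libraries 72 to 76 and in none of 41 to 43, while 12 were above it only in 41 to 43. Among small RNA genes the numbers were 21 of 118 and 0, among pseudogenes 56 of 300 and 2, and among TEC genes 84 of 691 and 1. The direction of such genes was fixed by the filter, so the class counts are descriptions and are repeated below for more abundant genes. Of 13617 protein-coding genes, 92 were called higher and 176 lower with all 8 libraries, with a median log2 fold change of -0.04 beside -0.02 over all genes. Of 118 small RNA genes, 15 (12.7%) were called higher and 3 lower (median 0.86), and of 300 pseudogenes 26 (8.67%) were higher and 1 lower (median 0.41), beside 1.00% higher and 1.18% lower over all genes. Summed over the 118 small RNA genes, levels were instead lower in libraries 72 to 76. They were 92500, 81950 and 104500 CPM in libraries 41 to 43 and 62040 to 66130 CPM in 72 to 76. Gm23935 was the most abundant and made up most of each sum, at 87010, 76080 and 95900 CPM against 52910 to 57650 CPM. The class also holds 4 tested genes annotated as ribosomal RNA. Of 691 genes of the class TEC, single-exon GENCODE models that still await experimental proof, 11 (1.59%) were higher and 1 lower (median 0.49). Of 868 long noncoding RNA genes, 13 (1.498%) were higher and 4 lower (median 0.06). Scaling by library size alone moved the protein-coding median to 0.04, so its sign depended on the scaling. With a smooth trend of the differences in length and GC content removed, the medians were 0.12 for small RNA, 0.22 for pseudogenes, 0.26 for TEC and -0.01 for long noncoding RNA genes.

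Without library 43 every class was called more often, as were all genes (15.2% against 2.19% with all 8 libraries). Among small RNA genes 70 were higher and 5 lower, which is 59.3% and 4.24% against 7.26% and 7.98% of all genes. Among TEC genes 248 were higher and 5 lower (35.9% and 0.724%), and among pseudogenes 58 were higher and 8 lower (19.3% and 2.67%). The share of pseudogenes called higher had been 8.67% with all libraries, beside 1.00% of all genes, so it rose less than that of all genes. Long noncoding RNA genes had 75 higher and 36 lower (8.64% and 4.15%), a higher share near that of all genes. Protein-coding genes had 679 higher and 1193 lower (4.99% and 8.76%). The medians were 1.36 for small RNA genes, 0.87 for TEC, 0.40 for pseudogenes, 0.08 for long noncoding RNAs and -0.02 for protein-coding genes.

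Among the 11580 genes with a mean of 5 CPM or more over the 8 libraries, a limit chosen after seeing the data, the counts were smaller and some classes were no longer one-sided. Of 26 small RNA genes, 7 were called higher and 2 lower with all libraries, and 18 higher and 4 lower without library 43 (medians 0.69 and 1.195). Of 56 TEC genes, 2 were higher and none lower, then 31 higher and 1 lower (0.52 and 0.77). All 8 snoRNA genes of that level were called higher without library 43, 4 of them with all libraries. Of 37 processed pseudogenes, 3 were higher and none lower with all libraries, but 4 were higher and 4 lower without library 43 (0.14 and 0.17). Over all 11580 genes, 725 were higher (6.26%) and 1159 lower (10.01%) without library 43.

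The finer biotypes are set beside the 1.00% of all genes called higher with all libraries and the 7.26% without library 43. Of 42 snoRNA genes, 6 (14.3%) were called higher with all libraries and 34 (81.0%) without library 43, and none lower in either fit. Processed pseudogenes, 205 in all, had 22 higher (10.7%) and none lower with all libraries and 45 higher (21.95%) and 5 lower without library 43. Long intergenic noncoding RNAs (298 genes) had 8 higher (2.69%) and none lower, then 34 (11.4%) and 7. Antisense genes (263) had none higher and 4 lower (1.52%), then 2 higher and 19 lower (7.22%), lower shares near the 1.18% and 7.98% of all genes.

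Position and strand inside a host gene also separated the TEC genes. The 535 that lie inside a protein-coding gene on its own strand had a median log2 fold change of 0.53 with all libraries and 0.96 without library 43. Of these, 212 (39.6%) were called higher and none lower in the latter fit, beside 7.26% and 7.98% of all genes. With all libraries 9 (1.68%) were called higher and none lower, beside 1.00% and 1.18%. The medians of their host genes were -0.07 and 0.02. The 42 on the strand opposite to a coding gene had medians of 0.04 and 0.09, and the 114 outside coding genes had 0.29 and 0.58. Long noncoding RNA genes inside a coding gene were similar in order without library 43. The 118 on the same strand had a median of 0.59 there, with 25 higher (21.2%) and 1 lower. The 414 on the opposite strand had -0.05, with 10 higher (2.42%) and 25 lower (6.04%), a lower share below that of all genes. With all libraries 1 of the 118 (0.85%) was called higher, below the 1.00% of all genes, with a median of 0.36. On the opposite strand 2 of the 414 were then higher and 4 lower, with a median of -0.04. The libraries were made with a stranded kit, but how reads were counted, and whether by strand, is not given in the sources used here. Reads from genes that overlap on opposite strands may therefore be mixed. On the same strand, reads of an intronic gene and of its host's unspliced transcript cannot be told apart.

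**Figure D2:**
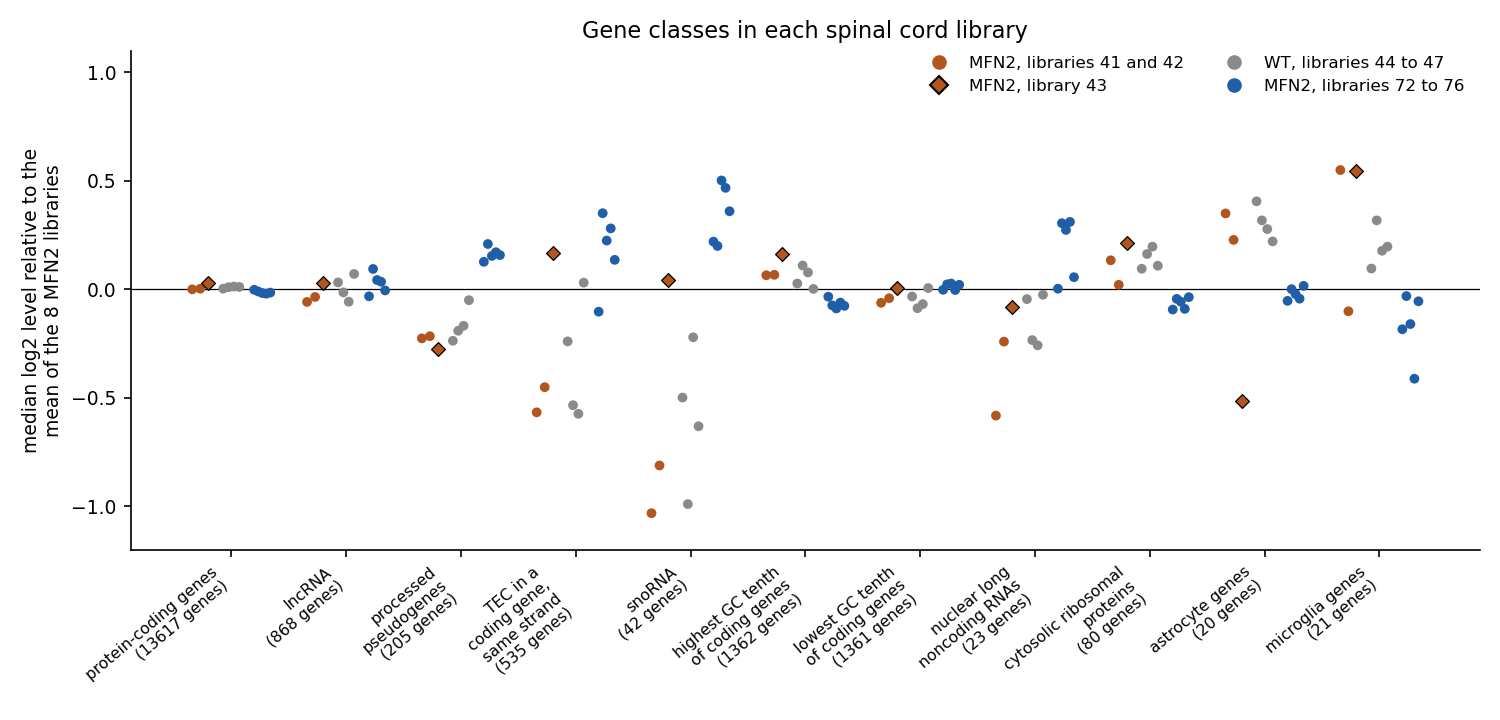
Median log2 level of each gene class or list (each gene relative to its mean over the 8 MFN2 libraries, y axis) in every library, with library 43 as a diamond, WT libraries in grey and libraries 72 to 76 in blue. Processed pseudogenes lay between 0.13 and 0.21 in libraries 72 to 76 and below 0 in all 7 others, with 48 of the 205 above 1 CPM in libraries 72 to 76 and in none of 41 to 43, whereas library 43 lay at 0.17 for same-strand TEC genes, inside the range of libraries 72 to 76.

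Library by library, the classes did not follow the numbers equally. The median of the processed pseudogenes, each gene taken relative to its own mean over the 8 MFN2 libraries on the log2 scale, was -0.23, -0.22 and -0.28 in libraries 41 to 43, and 0.13, 0.21, 0.15, 0.17 and 0.16 in 72 to 76. The 4 WT libraries lay at -0.24, -0.19, -0.17 and -0.05, but 48 of these 205 genes were above 1 CPM in libraries 72 to 76 and in none of 41 to 43, so the filter set part of this order. Over the 37 with a mean of 5 CPM or more, the medians were -0.033, -0.10 and -0.26 in libraries 41 to 43, 0.12, 0.035, 0.0070, 0.057 and 0.13 in 72 to 76, and -0.18, 0.014, 0.013 and 0.013 in the WT libraries, which overlapped those of 72 to 76. For snoRNA genes libraries 41 and 42 were low, at -1.03 and -0.81, while library 43 was at 0.04, just under the lowest of 72 to 76, which ranged from 0.20 to 0.50. For TEC genes on the host strand the values were -0.57, -0.45 and 0.17 against -0.10, 0.35, 0.23, 0.28 and 0.14, and library 43 lay inside the range of 72 to 76. WT libraries also varied in that class, from -0.57 to 0.03. The forebrain markers of library 43 are given above, and their part in these levels was not tested.

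**Figure D3:**
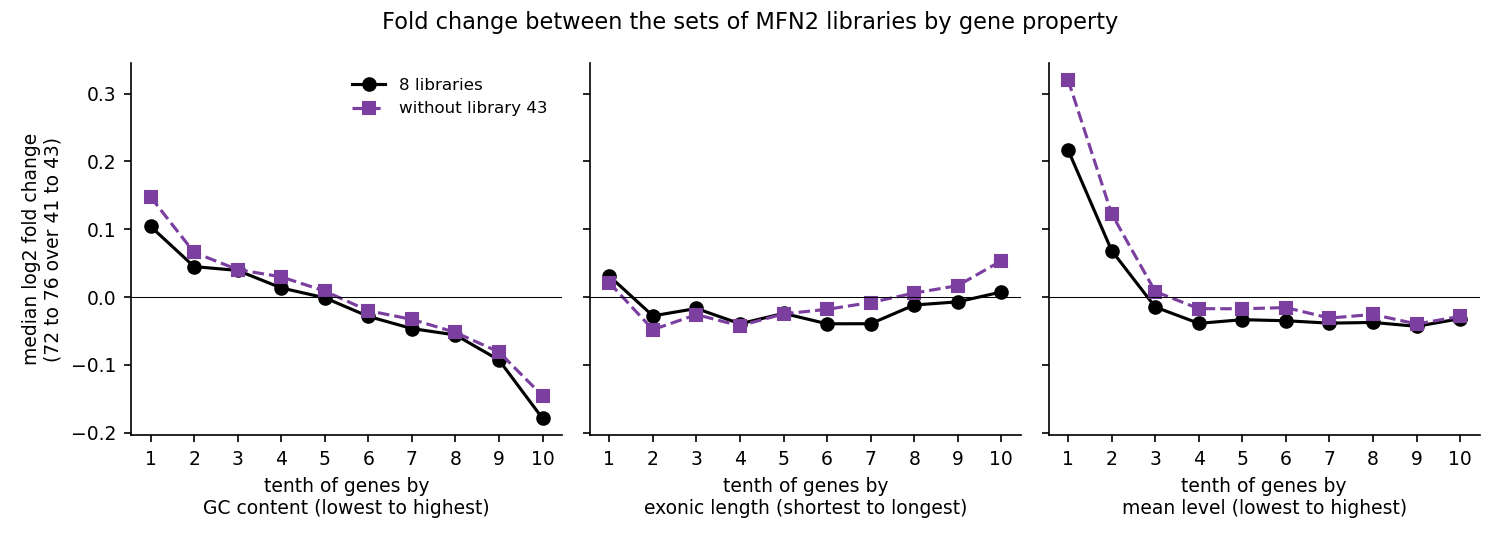
Median log2 fold change, libraries 72 to 76 over 41 to 43 (y axis), in each decile of the tested genes by GC content, exonic length and mean level (x axes), with all 8 libraries (circles) and without library 43 (squares). The GC curve falls from 0.10 in the lowest decile to -0.18 in the highest, the length curve ends close to where it starts, and the level curve is highest in the lowest decile, where 239 genes passed the filter through libraries 72 to 76 alone and 11 through 41 to 43 alone.

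The differences spanned a wider range over GC content than over transcript length. In the decile of genes with the lowest exonic GC content, from 28.7 to 40.7%, the median log2 fold change was 0.10 with all libraries and 0.15 without library 43. In the decile with the highest GC, from 57.8 to 75.5%, it was -0.18 and -0.15. Without library 43, 288 of the 1559 genes of the lowest decile were called higher (18.5%) and 39 lower (2.50%), and 53 of the 1560 of the highest decile were called higher (3.40%) and 279 lower (17.9%), beside 7.26% higher and 7.98% lower over all genes. Among protein-coding genes of the fifth and sixth length deciles, the medians of the lowest and the highest GC decile were still 0.05 and -0.21.

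Transcript length showed a smaller order, and its direction depended on the genes included. Over all genes the shortest decile, from 56 to 1619 bases, had medians of 0.03 and 0.02 with and without library 43, and the longest had 0.01 and 0.05. Among protein-coding genes alone the shortest decile had medians of -0.07 and -0.10, with 37 of 1361 called higher (2.72%) and 167 lower (12.3%) without library 43. The longest had 0.00 and 0.05, with 176 of 1362 higher (12.9%) and 67 lower (4.92%), beside 7.26% higher and 7.98% lower over all genes. The difference between the shortest and the longest decile changed sign between these gene sets, from 0.024 over all genes to -0.076 over protein-coding genes, and it was -0.032 over all genes without library 43. Among protein-coding genes of the fifth and sixth GC deciles, the shortest decile had medians of -0.05 and -0.07 with and without library 43. The longest had -0.002 and 0.04. Without library 43, 6 of the 272 shortest were called higher and 21 lower, and 32 of the 273 longest higher and 13 lower. Single-exon genes, 2029 in all, had a median of 0.15, while the 776 protein-coding genes of a single exon had -0.06. The decile of genes with the lowest mean level had medians of 0.22 and 0.32 with and without library 43, against 0.02 and 0.05 for the lowest decile of protein-coding genes. Of the 1563 genes in that lowest decile, 239 were above 1 CPM in libraries 72 to 76 and in none of 41 to 43 and 11 were the reverse, so the filter set part of its median.

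The genes that separated the blocks most completely were mostly copies of other genes. For 10 genes, every library of one block was above 1 CPM and above 4 times every library of the other. These genes were chosen after their values were seen. Of the 10, 9 were higher in libraries 72 to 76 and 1 was lower, and 7 were pseudogenes. Their closest matches are given below, with sequences for 4 of the copies that show where copy and parent differ. No test is given for these 10, since their difference chose them, and those below 1 CPM in all of libraries 41 to 43 passed the filter through 72 to 76 alone. The sequences are those of GENCODE M21 on GRCm38.

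Gm8730, at chr8:102864845-102865798 on the minus strand, is a processed pseudogene of Rplp0, a protein of the ribosomal stalk, and 98.7% identical to it over 954 bases. The 90-base window with the most differences is shown, bases that differ in capitals, with the parent's window under it.
Gm8730: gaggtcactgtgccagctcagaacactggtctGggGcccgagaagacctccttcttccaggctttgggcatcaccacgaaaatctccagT
Rplp0: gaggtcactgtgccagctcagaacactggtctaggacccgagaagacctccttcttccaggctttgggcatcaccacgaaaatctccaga
The window holds 3 substitutions. Gm8730 stood at 0.421, 0.619 and 1.23 CPM in libraries 41 to 43 and at 12.7, 14.2, 11.5, 12.99 and 23.2 CPM in 72 to 76 (log2 fold change 4.33 ± 0.40). Rplp0, on chromosome 5, stood at 181, 152 and 168 CPM against 125, 135, 119, 115 and 91.1 CPM. Its levels did not overlap either, in the opposite direction, but it was not called with all libraries (-0.51 ± 0.12, adjusted p = 0.066) and was called without library 43 (adjusted p = 0.036).

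Gm6472, at chrX:152909505-152910155 on the minus strand, is a transcribed processed pseudogene 99.4% identical over 651 bases to Rps7, a protein of the small ribosomal subunit. The window from the start of the coding sequence is shown in the same way.
Gm6472: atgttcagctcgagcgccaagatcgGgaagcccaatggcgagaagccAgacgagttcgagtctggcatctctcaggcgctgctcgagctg
Rps7: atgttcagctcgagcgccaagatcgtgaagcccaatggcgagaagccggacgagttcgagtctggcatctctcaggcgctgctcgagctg
Gm6472 stood at 0.612, 0.774 and 0.4928 CPM in libraries 41 to 43 and at 5.501, 5.63, 6.73, 3.72 and 3.11 CPM in 72 to 76 (2.96 ± 0.33). Rps7, on chromosome 12, was called lower, with 203, 192 and 190 CPM against 122, 129, 119, 130 and 132 CPM (-0.63 ± 0.064, adjusted p = 0.0080).

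The genes Rprl2 and Rprl3 resemble Rpph1, the RNA subunit of RNase P, which trims the 5′ end of transfer RNAs. Their matching stretches are shown with the bases that differ from Rpph1 in capitals, Rprl3 from chr8:3803069-3803358 on the minus strand and Rprl2 from chr3:22251374-22251663 on the plus strand.
Rprl3: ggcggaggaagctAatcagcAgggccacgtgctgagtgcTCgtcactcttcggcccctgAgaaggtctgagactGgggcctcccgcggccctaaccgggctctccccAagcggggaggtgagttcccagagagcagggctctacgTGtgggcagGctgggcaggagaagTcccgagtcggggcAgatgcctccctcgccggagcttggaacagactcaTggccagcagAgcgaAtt
Rprl2: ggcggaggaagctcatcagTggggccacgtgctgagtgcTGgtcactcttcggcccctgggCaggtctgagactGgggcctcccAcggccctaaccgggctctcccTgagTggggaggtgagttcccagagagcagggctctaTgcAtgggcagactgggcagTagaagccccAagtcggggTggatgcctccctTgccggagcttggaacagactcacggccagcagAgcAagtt
Rpph1: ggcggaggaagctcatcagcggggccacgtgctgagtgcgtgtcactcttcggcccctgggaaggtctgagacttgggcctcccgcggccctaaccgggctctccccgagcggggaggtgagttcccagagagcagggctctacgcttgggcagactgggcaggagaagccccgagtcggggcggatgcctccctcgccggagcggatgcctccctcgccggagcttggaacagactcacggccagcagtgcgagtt
Rprl3 differs from Rpph1 by 15 substitutions and Rprl2 by 16, and the alignment of each leaves 21 bases of Rpph1 unmatched. Neither gene had a single count in libraries 41 to 43. Rprl3 stood at 10.6, 16.8, 20.4, 18.7 and 18.4 CPM and Rprl2 at 1.66, 17.1, 18.6, 17.3 and 19.6 CPM in libraries 72 to 76, so library 72 was the lowest for both. In the WT libraries Rprl3 had no count, and Rprl2 was at 0 in 3 libraries and at 0.0532 CPM in the other. Rpph1 stood at 1450, 1987 and 1986 CPM in libraries 41 to 43 and at 1470, 1256, 1289, 1176 and 1292 CPM in 72 to 76. Those ranges overlapped, and its difference was -0.48 ± 0.12 (adjusted p = 0.074; 0.035 without library 43).

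Further pseudogenes showed the same pattern. Gm14165, a second copy of Rplp0 at 97.2% identity, was at most 0.191 CPM in libraries 41 to 43 and at least 1.55 CPM in 72 to 76. Gm3375, a copy of the proteasome subunit gene Psmb5 at 98.9%, was at most 0.148 CPM against at least 1.99 CPM, and Psmb5 itself was called lower (-0.50 ± 0.088, adjusted p = 0.035). Gm14719 (a copy of Ppdpf at 97.7%), Gm7993 (of the ornithine decarboxylase gene Odc1 at 95.3%) and Gm7335 (of Scoc at 98.4%) were at most 0.0774, 0.0774 and 0.155 CPM in 41 to 43 and at least 1.68, 2.29 and 1.48 CPM in 72 to 76. Of their parents, Ppdpf was at -0.71 (adjusted p = 0.072, 0.042 without library 43), Odc1 at -0.40 (0.13, 0.0086) and Scoc at -0.16 (0.31, 0.16).

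Gm16867, annotated as protein coding, was the exception. It stood at 6.43, 4.41 and 3.40 CPM in libraries 41 to 43, between 3.08 and 4.45 CPM in the WT libraries, and at 0, 0.0503, 0, 0.0388 and 0 CPM in 72 to 76. Its closest match was Entpd4, 99.7% identical over 1145 bases, which had a mean of 0 CPM in every group. Entpd4 was on a list of genes with alleles known to differ between the B6 and D2 strains. The alleles of these animals were not tested. Levels of these near-identical loci are uncertain, because reads that fit a parent and a copy equally well can be assigned to either, and the rule used for such reads was not given in the sources used here. In the WT libraries 8 of the 10 loci stood at 1.06 CPM or less, as in most of libraries 41 to 43. The exceptions were Gm7335, which reached 1.80 CPM in 1 WT library, and Gm16867.

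**Figure D4:**
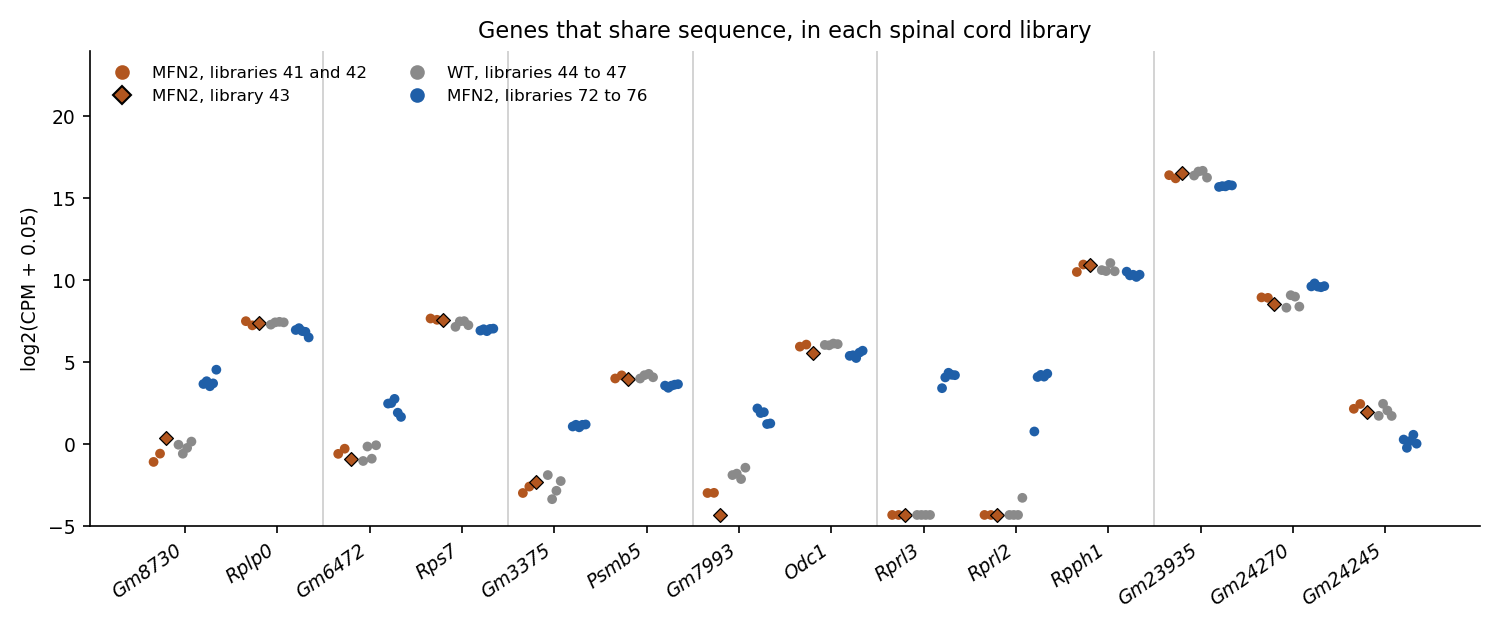
Level of copies and parent genes in each library as log2(CPM + 0.05), with vertical lines between families, library 43 as a diamond, WT libraries in grey and libraries 72 to 76 in blue. Gm8730 and Gm6472 lie at or below 1.23 CPM in libraries 41 to 43 and at 3.11 CPM or more in 72 to 76, while Rplp0 and Rps7 lie lower in 72 to 76 than in 41 to 43.

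The most abundant small RNA locus belongs to a further family of copies. Gm23935, Gm24270 and Gm24245 are annotated as microRNA genes and share an identical sequence of 57 bases, printed once, while Gm24187, Gm25911 and Gm23388 differ from it at the bases in capitals, and Gm25911 also lacks 1 base.
Gm23935: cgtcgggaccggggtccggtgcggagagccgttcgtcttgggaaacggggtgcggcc
Gm24187: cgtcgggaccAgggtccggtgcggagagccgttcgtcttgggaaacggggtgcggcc
Gm25911: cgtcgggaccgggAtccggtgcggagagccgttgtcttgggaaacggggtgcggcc
Gm23388: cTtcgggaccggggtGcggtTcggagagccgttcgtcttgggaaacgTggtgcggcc
Gm23935, at chr16:11144125-11144181, was called lower, with 87010, 76080 and 95900 CPM against 52910, 54700, 54230, 57650 and 56370 CPM (-0.65 ± 0.093, adjusted p = 0.020). Gm24270, at chr9:56223715-56223771, was called higher, with 495, 485 and 370 CPM against 788, 895, 783, 761 and 797 CPM (0.84 ± 0.11, adjusted p = 0.015). Gm24245, at chr4:139338304-139338360, was called lower, with 4.40, 5.42 and 3.89 CPM against 1.16, 0.805, 1.09, 1.44 and 0.969 CPM (-2.05 ± 0.21, adjusted p = 0.0080). Loci of the same sequence thus differed in opposite directions. Gm24187 fell without library 43 (-0.90, adjusted p = 0.031; 0.052 with it), and Gm23388 was not called (-0.42, adjusted p = 0.39). Gm25911 rose without library 43, with 51.4 and 58.6 CPM in libraries 41 and 42, 160 CPM in library 43 and 205, 231, 205, 212 and 218 CPM in 72 to 76 (1.95 ± 0.078, adjusted p = 7.0e-07; 0.093 with library 43). CT010467.1 was named by the rule for small RNAs. It is annotated as ribosomal RNA, which that class includes here, and is 2466 bases long. It was lower at 132, 122 and 173 CPM against 61.3, 57.8, 54.3, 56.7 and 49.3 CPM (-1.35 ± 0.12, adjusted p = 0.0046).

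Single small RNAs with known nuclear or cytoplasmic roles differed in size and direction. The genes of this paragraph were chosen after their values were seen, and Rpph1, described above, was lower without library 43. Rn7sk, the 7SK RNA, stood at 2183 and 2047 CPM in libraries 41 and 42, at 3974 CPM in library 43 and at 5178, 5499, 5307, 4885 and 5083 CPM in 72 to 76 (0.92, adjusted p = 0.061; 1.29 ± 0.072, adjusted p = 1.3e-05 without library 43). Rmrp, the RNA of RNase MRP, stood at 114, 87.6 and 241 CPM against 284, 268, 277, 315 and 301 CPM (adjusted p = 0.11; 8.9e-05 without library 43). Library 43 lay between the other libraries of its block and 72 to 76 for both. For Rny1 and Rny3, the Y RNAs bound by Ro60, library 43 was instead above all of 72 to 76, at 26.2 and 39.7 CPM against at most 20.7 and 36.2 CPM, and neither was called with all libraries (adjusted p = 0.65 and 0.55). Without library 43 both were higher, Rny1 by 1.54 (adjusted p = 0.018) and Rny3 by 2.04 (adjusted p = 0.0051). Snora73b, a snoRNA, was called in both fits (1.26 ± 0.23, adjusted p = 0.039; 1.65 without library 43), as was Snord17 (0.79 ± 0.16, adjusted p = 0.0496; 0.98).

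Nuclear long noncoding RNAs that were called were mostly higher in libraries 72 to 76. Of the 25 listed, 23 were tested, and 3 (13.04%) were called higher with all libraries and 9 (39.1%) without library 43, with none and 2 lower, beside 1.00% and 7.26% higher over all genes. Malat1, a nuclear speckle RNA, stood at 7888, 7372 and 8065 CPM against 11770, 17130, 14290, 17070 and 16380 CPM (0.98 ± 0.14, adjusted p = 0.018). Meg3 stood at 957, 1097 and 1596 CPM against 2064, 2746, 2911, 3250 and 2258 CPM (1.12 ± 0.21, adjusted p = 0.040). Neither gene's levels overlapped between the blocks. Without library 43 the imprinted antisense RNA Kcnq1ot1 (0.98), Miat (1.14) and Snhg11 (1.01) were also higher. Gas5, a host gene of snoRNAs (-0.57), and Peg13 (-0.34) were lower. The list's median was 0.49 with all libraries and 0.38 without library 43. The long noncoding RNA 3110039I08Rik, named by the rule, was at 46.8, 47.6 and 44.95 CPM against 64.2, 64.5, 64.8, 63.5 and 58.5 CPM (0.44 ± 0.063, adjusted p = 0.020).

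Several noncoding genes of the imprinted Meg3 to Mirg region on chromosome 12 were higher in libraries 72 to 76. From the maternal chromosome this region gives rise to long noncoding RNAs and, from their introns, to a large cluster of snoRNAs and microRNA hairpins. Of its noncoding genes, 24 were tested in chr12:109541001-109749460, a stretch of 208.5 kb, and 8 of them were above 1 CPM in libraries 72 to 76 and in none of 41 to 43, so that the filter fixed their direction. Of the 24, 7 were called higher with and without library 43, 19 without it, and none was called lower. Over all genes, 1.00% were higher with all libraries and 7.26% without library 43. Of the 6 with a mean of 5 CPM or more, 4 were called higher with all libraries and all 6 without library 43, with medians of 1.13 and 1.31, beside -0.04 and -0.02 over all genes of that level. Mirg, the host gene at the far end, stood at 16.9, 21.97 and 21.3 CPM against 42.6, 43.3, 42.2, 52.3 and 39.7 CPM (1.14 ± 0.12, adjusted p = 0.0083). Rian, between them, was called without library 43 (0.63 ± 0.089, adjusted p = 0.0020).

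Summed over the 24 genes, the region held 1229, 1426 and 2030 CPM in libraries 41 to 43 and 2541, 3262, 3435, 3839 and 2748 CPM in 72 to 76, without overlap. The 4 WT libraries held 2031, 1161, 1281 and 1559 CPM. Meg3 alone made up most of each sum, with 957, 1097 and 1596 CPM in libraries 41 to 43 and 2064 to 3250 CPM in 72 to 76. The sums therefore mostly repeat the levels of that gene. The coding genes of the domain, which are expressed from the paternal chromosome, were not called: Rtl1 was at 0.42 (adjusted p = 0.31) and 0.18 without library 43, and Dlk1 was at 0.45 (adjusted p = 0.46) and 0.08. Of the 31 microRNA genes tested in all, 16 lay in the region. The other 100 small RNA genes outside it had a median of 0.78 with all libraries and 1.35 without library 43, with 57 called higher and 5 lower in the latter fit.

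The 2 microRNA genes of the region called in both fits were Mir665, which passed the filter through libraries 72 to 76 alone, and Mir496a. Their mature sequences from RefSeq (GRCm38.p6, plus strand) are shown with the seed, bases 2 to 8, in capitals.
mmu-miR-665-5p: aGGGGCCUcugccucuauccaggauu
mmu-miR-665-3p: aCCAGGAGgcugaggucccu
mmu-miR-496a-5p: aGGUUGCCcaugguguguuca
mmu-miR-496a-3p: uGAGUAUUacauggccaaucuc
No seed was shared among the 4. Mir665 stood at 0.574, 0.348 and 0.542 CPM against 1.21, 1.56, 1.18, 1.75 and 1.07 CPM (1.47 ± 0.29), and Mir496a at 1.03, 1.08 and 1.38 CPM against 2.51, 2.47, 2.84, 2.87 and 2.91 CPM (1.22 ± 0.18, adjusted p = 0.023). These are reads over the hairpin locus in an RNA-seq library and do not measure the mature microRNAs.

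**Figure D5:**
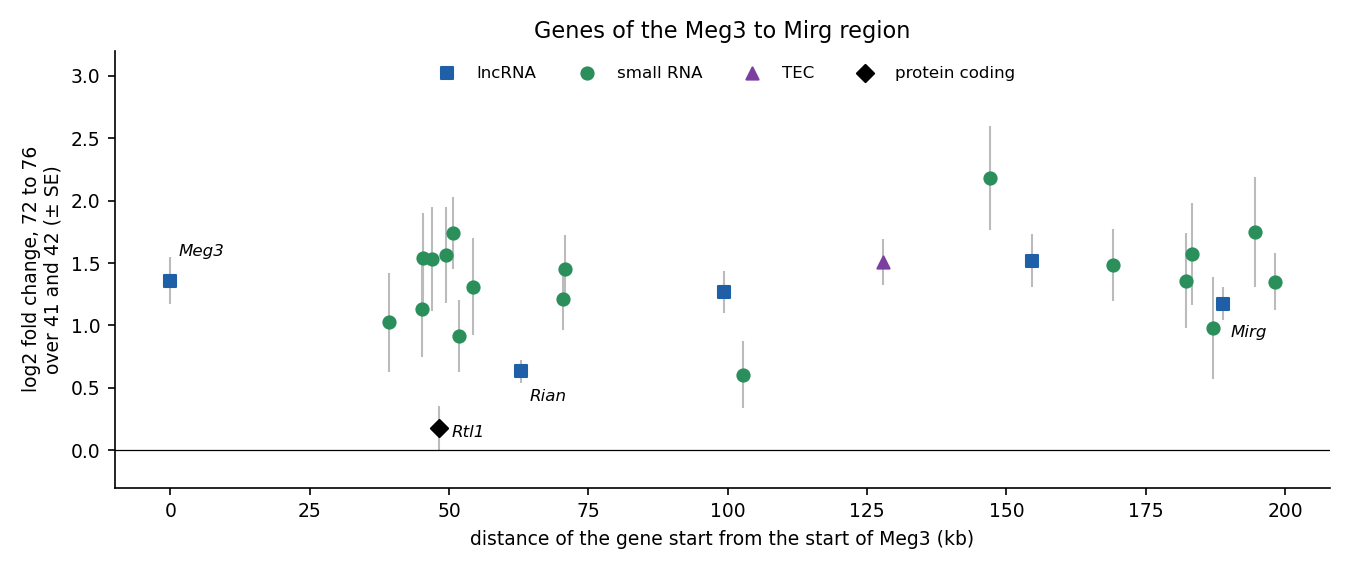
Log2 fold change with its standard error in the fit without library 43 (libraries 72 to 76 over 41 and 42, y axis) of each gene tested in the Meg3 to Mirg region, by distance of its start from that of Meg3 in kb, with symbols for gene classes. The 24 noncoding genes, 8 of which passed the filter through libraries 72 to 76 alone, lie between 0.61 and 2.18, and the coding gene Rtl1 lies at 0.18.

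Cytosolic ribosomal protein genes were called mostly lower in libraries 72 to 76. Of the 82 listed, 80 were tested, with none called higher and 14 lower (17.5%) with all libraries, and 2 higher and 29 lower (36.3%) without library 43, beside 1.18% and 7.98% lower over all genes. The list's median was -0.16 in both fits. After Rps7, described above, examples were Rps3a1 with 111, 123.3 and 123.7 CPM against 87.3, 86.4, 83.5, 77.5 and 86.3 CPM (-0.50 ± 0.070, adjusted p = 0.018) and Rps3 with 185, 166 and 171 CPM against 127, 136, 129, 122 and 142 CPM (-0.40 ± 0.074, adjusted p = 0.037). Levels did not overlap between the blocks for either. The 2 that were higher without library 43 were Rpl34 (0.29) and Rpl23a (0.36). Summed, the 80 genes held 7759, 7506 and 8080 CPM in libraries 41 to 43, 7501 to 8210 CPM in WT libraries and 6698 to 7076 CPM in 72 to 76. Many of these genes have processed pseudogenes, so their counts are uncertain as stated for Rps7 and Rplp0.

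Nuclear-encoded oxidative phosphorylation genes, 77 tested, had 2 called higher and 2 lower with all libraries (2.60% each) and 5 and 10 without library 43 (6.49% and 12.99%). Over all genes the shares were 1.00% and 1.18%, and 7.26% and 7.98%. Ndufa4, an electron transport subunit, was at 51.2, 49.4 and 50.6 CPM against 64.6, 65.7, 68.8, 66.5 and 67.0 CPM (0.40 ± 0.056, adjusted p = 0.019), and the complex I subunit Ndufs4 was also higher (0.45, adjusted p = 0.021). Cox5b of complex IV (-0.43, adjusted p = 0.034) and Ndufb3 of complex I (-0.53, adjusted p = 0.024) were lower. Genes of the mitochondrial genome were not analysed here. The pseudogene Gm10925, named by the rule, was at 3322, 3244 and 3930 CPM against 5169, 5428, 5014, 5541 and 6000 CPM (0.63 ± 0.098, adjusted p = 0.024).

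Genes for splicing regulators were called without library 43. Of 17 genes for CLK kinases and related splicing factors, 8 (47.1%) were called higher and none lower in that fit, beside 7.26% higher over all genes, and none with all libraries, with medians of 0.17 and 0.18. Clk1, a kinase of SR splicing factors that keeps retained introns in its own transcript, was at 41.5, 47.04 and 57.1 CPM against 56.4, 73.1, 67.7, 66.2 and 58.6 CPM (0.41, adjusted p = 0.11; 0.54 ± 0.10, adjusted p = 0.0085 without library 43). Rbm25 (0.60), Luc7l3 (0.57) and Nktr (0.53) were further members. Of 42 spliceosome genes, 1 (2.38%) was higher with all libraries, Srrm1 (0.38 ± 0.076, adjusted p = 0.046), beside 1.00% of all genes. Without library 43, 7 were higher and 4 lower (16.7% and 9.52%), beside 7.26% and 7.98% of all genes, so the lower share was near that of all genes.

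Astrocyte and microglia genes that were called were lower. Of 20 astrocyte genes, none was called higher and 3 lower with all libraries, with 9 lower without library 43, where 1.18% and 7.98% of all genes were lower (medians -0.14 and -0.33). Glul, the glutamine synthetase of astrocytes, was at 887, 884 and 772 CPM against 525, 629, 647, 519 and 468 CPM (-0.60 ± 0.12, adjusted p = 0.045). Mlc1, a membrane protein of astrocyte endfeet, and the transcription factor Sox9 were the other 2 (-0.65 and -0.48, adjusted p = 0.020 for each). The summed list, of which Slc1a2 was the most abundant, held 13890, 11050 and 8786 CPM in libraries 41 to 43 and 9012 to 10560 CPM in 72 to 76. Library 43 was thus below all 5 of them in the sum. Of 21 tested microglia and macrophage genes, 1 was lower with all libraries, the fractalkine receptor Cx3cr1 (37.7, 25.8 and 42.5 CPM against 21.4, 20.4, 23.1, 19.4 and 22.9 CPM), and 5 (23.8%) were lower without library 43, with none higher. The summed list held 476, 290 and 444 CPM in libraries 41 to 43 and 271, 292, 277, 218 and 292 CPM in 72 to 76, so library 42 lay inside the range of 72 to 76. The 29 myelin and mature oligodendrocyte genes had 2 lower and none higher without library 43, and the 16 oligodendrocyte precursor genes had 1 of each, with no call in either list with all libraries.

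Motor neuron genes were low in library 43. The 21 listed, of which Nefm was the most abundant, summed to 7460, 9480 and 2092 CPM in libraries 41 to 43, 10830 to 12400 CPM in 72 to 76 and 7709 to 12370 CPM in the WT libraries. With all libraries none of 21 was called, with a median of 0.65. Without it 5 (23.8%, beside 7.26% of all genes) were higher and none lower, and the median was 0.24. Chat, given above for libraries 41 to 43, was at 24.3, 22.4, 27.8, 30.4 and 27.8 CPM in 72 to 76 (0.61 ± 0.12, adjusted p = 0.0077 without library 43). Nefh, the heavy neurofilament, was at 1616, 2010 and 343 CPM against 2512, 2401, 2611, 2845 and 2940 CPM (0.55 ± 0.10, adjusted p = 0.0073 without library 43). The WT libraries had 1627 to 2730 CPM of Nefh and 16.6 to 35.9 CPM of Chat, ranges that reached across both blocks. Hoxb8 was at 0.11 with library 43 (adjusted p = 0.91) and was called lower without it (-0.38 ± 0.069, adjusted p = 0.0057), with 149 and 128 CPM in libraries 41 and 42 against 103 to 113 CPM.

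Single stress and activity genes were called with all libraries, where 1.00% of all genes were higher and 1.18% lower. More were called without library 43, where 7.26% of all genes were higher and 7.98% lower. Of 29 immediate early genes tested, the AP-1 subunit Jund (-0.55 ± 0.070, adjusted p = 0.011) and Ier5 (-1.42 ± 0.23, adjusted p = 0.028) were lower with all libraries (6.90%). Without library 43, 2 were higher and 5 lower (17.2%). Library 43 stood apart in this list, which summed to 1004 CPM there and to between 406 and 492 CPM in the other MFN2 libraries. The list's median was -0.50 with all libraries and 0.01 without library 43. Of 26 heat shock genes, Hspa1b, an inducible Hsp70, was lower at 4.94, 2.48 and 5.32 CPM against 1.39, 1.21, 1.09, 0.892 and 1.48 CPM (-1.81 ± 0.28, adjusted p = 0.024), and 1 was higher and 5 lower (19.2%) without library 43. Of 18 glucocorticoid response genes Hif3a was higher, with 3 higher (16.7%) and none lower without library 43. Of 20 clock genes Per3 was higher (0.66 ± 0.095, adjusted p = 0.020), with 3 higher and 1 lower without library 43. Of 29 mitophagy and autophagy genes 1 was lower with all libraries, the receptor Calcoco1 (-0.29 ± 0.057, adjusted p = 0.044), and without library 43 1 was higher and 6 lower (20.7%). Of 36 histone genes tested, Hist2h2be was lower (-0.83 ± 0.14, adjusted p = 0.030), with 2 higher and 2 lower without library 43.

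Muscle genes varied by library. Of 25 listed, 23 were tested and none was called with all libraries. Without library 43 none was higher and 1 (4.35%) was lower, beside 7.26% and 7.98% of all genes. The medians were nevertheless 1.68 with all libraries and 2.41 without library 43. The list summed to 225, 218 and 163 CPM in libraries 41 to 43 and to 188, 1306, 237, 231 and 310 CPM in 72 to 76, and WT libraries ranged from 212 to 1017 CPM. Library 73 was the highest. Ttn was its most abundant gene and Acta1 reached 74.6 CPM there. The count of calls without library 73 is given above, and the part of muscle RNA in other results was not tested.

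In all, 36 lists were counted, and 14 had a gene called with all libraries. Without library 43, lists with more genes lower than higher numbered 15 and those with more higher numbered 14. In 4 lists, the Schwann cell, blood, cholesterol synthesis and dorsal root ganglion genes, no gene was called in either fit. The 10 genes listed for the study, among them Mfn1 and the promoter gene Eno2, had no call with all libraries. Without library 43, Chat and Nefh were higher and Map1lc3b, which encodes the autophagosome protein LC3B, was lower (-0.37 ± 0.052, adjusted p = 0.0019). Bnip3, Sqstm1, Lamp1, Tomm20, Mfn1, Mfn2 and Eno2 were not called in either fit.

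The single protein-coding and long noncoding genes with the largest changes were named by rule from among those called with all libraries. Beside Mirg, Meg3 and Malat1, the higher genes were Hif3a, Adi1, Nexn, Cfap46 and Onecut2. Hif3a, a hypoxia-inducible factor subunit, was at 2.14, 1.35 and 3.01 CPM against 5.55, 10.51, 10.41, 5.39 and 6.63 CPM (1.84 ± 0.35, adjusted p = 0.044). Adi1, a methionine salvage enzyme, was at 37.5, 26.9 and 15.1 CPM against 73.7, 85.3, 76.8, 49.5 and 66.9 CPM (1.41 ± 0.29, adjusted p = 0.0496). The actin-binding Nexn, the ciliary gene Cfap46 and the homeobox gene Onecut2 had log2 fold changes of 0.99, 0.95 and 0.94. For Adi1, Nexn, Cfap46 and Onecut2 library 43 was the lowest of the 8, and their changes without it were 1.12, 0.75, 0.79 and 0.77.

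The lower genes were Nat8f4, Ptgds, Ier5, Naaa, Cep112, Nbl1, Hopx and Use1. Nat8f4, of the Nat8 acetyltransferase family, stood at 11.6, 9.94 and 10.8 CPM against 2.82, 3.17, 2.43, 2.56 and 3.06 CPM (-1.94 ± 0.13, adjusted p = 9.0e-04), and at 10.1 to 13.4 CPM in WT libraries. Ptgds, the prostaglandin D2 synthase of meninges and oligodendrocytes, stood at 186, 162 and 151 CPM against 43.5, 69.1, 46.5, 35.5 and 47.7 CPM (-1.78 ± 0.19, adjusted p = 0.0083). Both sets were far from overlapping. Use1, a SNARE of the endoplasmic reticulum, was at 50.1, 54.1 and 44.2 CPM against 24.4, 22.6, 23.7, 22.9 and 31.3 CPM. The lysosomal amidase Naaa (-1.195), the centrosomal Cep112 (-1.14), the BMP antagonist Nbl1 (-1.08) and Hopx (-1.03) completed the set. Among long transcripts, Atp8a1, a phospholipid flippase, was lower (-0.40) and Ktn1, the kinesin receptor kinectin, was higher (0.46).

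The WT libraries, numbered 44 to 47, lay mostly with libraries 41 to 43 in these genes. Of the 341 genes called in both fits, the WT mean was nearer to the mean of 41 to 43 in 302 (88.6%) and nearer to 72 to 76 in 39. Over all 15633 tested genes it was nearer to 41 to 43 in 7985 (51.1%). In 278 genes all 4 WT libraries lay on the 41 to 43 side of every library from 72 to 76. With 0 set at libraries 41 to 43 and 100 at 72 to 76, the median WT position was 21.0%. The WT mice differ from both blocks in genotype. The labels give them as C57BL/6, while the methods describe littermates of the transgenic mice, so a difference in strain background is possible.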

How the data were processed

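Per the methods, RNA was extracted from lumbar spinal cord with an RNeasy kit, and SMARTer-Stranded Total RNA libraries were sequenced as paired ends on a NextSeq 500. The study describes the library type in conflicting terms. Its main text names total RNA sequencing, a heading of its methods 3′-mRNA sequencing, and the methods themselves poly(A) mRNA sequencing. Whether RNA with a poly(A) tail was selected is thus not settled here. Per the labels the authors used bcl2fastq and STAR on GRCm38.p6, and edgeR is also named. They deposited raw counts per gene and library; the counter and strand mode are not given in the sources used here. Here edgeR 4.0.16 (R 4.3.3) was run on the counts as deposited: genes above 1 CPM in at least 3 of 8 libraries (15633 of 49548) were kept, TMM scaling and the quasi-likelihood test with robust estimation were applied, and p-values were adjusted by Benjamini-Hochberg over all tested genes with a threshold of 0.05. The same genes were fitted without library 43. CPM are counts scaled by TMM-adjusted library sizes. Gene classes, lengths and GC content came from GENCODE M21 (49289 identifiers matched), and copies were aligned with blastn 2.17.0. The members, lists and tests were chosen with earlier results of these data known, and lists are described by counts and medians only. Named genes were 10 genes listed for the study and sex-linked genes; the 8 largest rises and 8 largest falls among protein-coding and long noncoding genes called in both fits, with levels that did not overlap, a mean of 5 CPM or more and no Gm or Rik symbol; and, for each list, length extreme and noncoding class, up to 3 genes called in both fits, most abundant first. Any other gene was chosen after its values were seen. Alternatives were other scalings, filters and tools (DESeq2 1.42.0, limma 3.58.1), covariates, and each library left out. No pair of libraries was alike within sampling noise (lowest mean chi-square per gene 5.4).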

Additional observations from a re-analysis of the deposited data

Results flagged for a closer look

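In 12 of 92 groups of 5 libraries (the levels of a named gene in libraries 72 to 76), the gap between the highest or lowest library and its neighbour was a larger share of the group's range than Dixon's 95% value allows. Chance alone sets apart about 1 in 20 groups. Library 76 was the separate one for Ppdpf (15.3 CPM, gap share 0.927), Use1 (31.3 CPM, 0.800), 3110039I08Rik (58.5 CPM, 0.784), the Rplp0 copies Gm8730 (23.2 CPM, 0.767) and Gm14165 (3.11 CPM, 0.762), and Hopx (24.1 CPM, 0.762). Library 73 stood apart for the muscle genes Ckm (15.2 CPM, 0.881) and Acta1 (74.6 CPM, 0.880) and for Gm24270 (895 CPM, 0.735). Library 72 stood apart for Rprl2 (1.66 CPM, 0.859), library 74 for Map1lc3b (119 CPM, 0.715) and library 75 for Mirg (52.3 CPM, 0.712). In 3110039I08Rik, Hopx, Use1, Ppdpf and Rprl2 the separate library lay toward libraries 41 to 43. In Gm8730, Gm14165, Mirg, Gm24270, Acta1 and Ckm it lay away from them. For Map1lc3b the levels of the blocks overlapped.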

How the results depend on the processing

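The count of 342 genes over the 8 libraries became 1795 with DESeq2, 1329 with the WT libraries in the fit, 1 with the Xist level as a covariate, 2036 with a forebrain score as a covariate and 688 with female-pattern libraries alone, and it ranged from 31 (without library 74) to 2383 (without library 43) with each library left out in turn. The count of 2383 without library 43 became 551 with the Xist level and 688 with female-pattern libraries alone, and ranged from 688 (without library 41) to 2616 (without library 76). The female-pattern fit set library 42 against libraries 72 to 76. It is the same fit as the one without libraries 41 and 43, so it is a single result wherever it is listed. The female-pattern fit and the other leave-one-out fits with 1 library in the smaller block assume that the lone library varies as the others do. Other filters, scalings and tools kept both counts within 1.5 times. The female-pattern fit, the GC trend and the class medians were added after seeing the data, and the cause of the changes was not tested. The pseudo-F ranged from 2.29 to 4.05 with each library left out. The length trend (shortest minus longest decile) moved from 0.024 to -0.032 without library 43, -0.065 with genes above 1 CPM in every library and -0.076 over protein-coding genes, and with each library left out it ranged from -0.032 to 0.061. The GC trend, 0.28, ranged from 0.25 to 0.31 with each library left out and was 0.22 over protein-coding genes. Among single genes that were not called over the 8 libraries, Eno2 turned to 0.048 under library-size scaling. With each library left out, Eno2 ranged from -0.093 to 0.043, Bnip3 from -0.17 to 0.14, Lamp1 from -0.14 to 0.40, Sqstm1 from -0.00043 to 0.088 and Hoxb8 from -0.38, where it was called, to 0.53. With another library left out, 233 gene results lost their call, 4 gained one, 5 changed direction and 409 stayed on the same side of the threshold. No paired analysis was possible because the library numbers are all different and none occurs in both blocks.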
